A study of Mus musculus with 2 samples.

Results

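The nuclear-encoded subunits of the respiratory chain and of ATP synthase were followed in long-read RNA sequencing of the mouse adrenal gland. Members were annotated genes whose symbols begin with Nduf and a subunit letter and digit, are Sdha to Sdhd, Cyc1 or Cycs, or begin with Uqcr, with Cox4 to Cox8 or with Atp5, and whose symbols do not mark a pseudogene. The rule reads symbols and no measured value, and was set with earlier results of these data known. It gave 86 gene identifiers with 85 symbols, among 16400 annotated genes with reads. Of these, 82 had reads in both libraries and 81 had at least 10 reads in all, the minimum for a test. The samples were 2 libraries of 1 group, both of total RNA from adrenal glands. The mice were females of strain B6CASTF1/J, which are hybrids of the strains C57BL/6J and CAST/EiJ, and were 25 days old. There was no treatment and no further tissue. The labels call the libraries biological replicates 1 and 2. One animal is named in the library descriptions of both, but the tissue descriptions name different ones, so the spread between the libraries may be partly technical.

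Replicate 1 held 426150 reads and replicate 2 held 770041, of which 397176 and 712032 lay on annotated mouse genes. Levels are given as CPM, a gene's count scaled by those totals, so 1 read was 2.52 CPM in replicate 1 and 1.40 in replicate 2. Each long read stands for 1 transcript, so CPM was not divided by length. Where a gene had no read, the limit taken was 3 reads, equal to 7.55 CPM in replicate 1 and 4.21 CPM in replicate 2. Intervals in parentheses are 95% Wilson intervals. They and the p-values cover counting error only, since reads without molecular identifiers are not independent molecules. Markers of the adrenal cortex (6 of 6 read, 74546 and 67341 CPM summed) and medulla (6 of 6 read, 10910 and 11971 CPM) were read in both libraries, as the tissue label states. In RNA of a whole gland, fewer cells of a type and less RNA per cell cannot be told apart.

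Oxidative phosphorylation takes place in the inner mitochondrial membrane. Complexes I and II pass electrons from NADH and succinate to ubiquinone, complex III passes them on to cytochrome c and complex IV to oxygen, while complexes I, III and IV pump protons that drive ATP synthase, complex V. Most subunits are encoded in the nucleus, made in the cytosol and imported. In the adrenal cortex, mitochondria also hold steroid-synthesising cytochrome P450 enzymes such as the cholesterol side-chain cleavage enzyme. Subunits encoded by the mitochondrial genome are not members.

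Of annotated-gene reads, the members took 4.16% in replicate 1 (4.10 to 4.23), against 4.39% in replicate 2 (4.34 to 4.44), with a mean of 4.28% ± 0.160 (SD, n = 2). Complex I, with 35 genes, summed to 11375 CPM in replicate 1 and 12804 in replicate 2. Complex IV, with 19 genes, summed to 11023 and 12002 CPM. Complex V, with 18 genes, summed to 10960 and 10766 CPM. These sums lay close together, whereas the smaller complexes held less. Complex III, with 9 genes, reached 6063 and 6227 CPM, complex II, with 4 genes, 1929 and 1826 CPM, and Cycs, the electron carrier cytochrome c, 285 and 267 CPM. The median level of the 81 members tested was 406 CPM, against 39.4 CPM over all 9271 genes with at least 10 reads, and 53 members stood among the 500 most read genes. The order of members was close to the same in both libraries, with a Spearman correlation of 0.967 between their CPM values over 81 genes. This is a correlation across genes, which are not independent replicates.

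**Figure D1:**
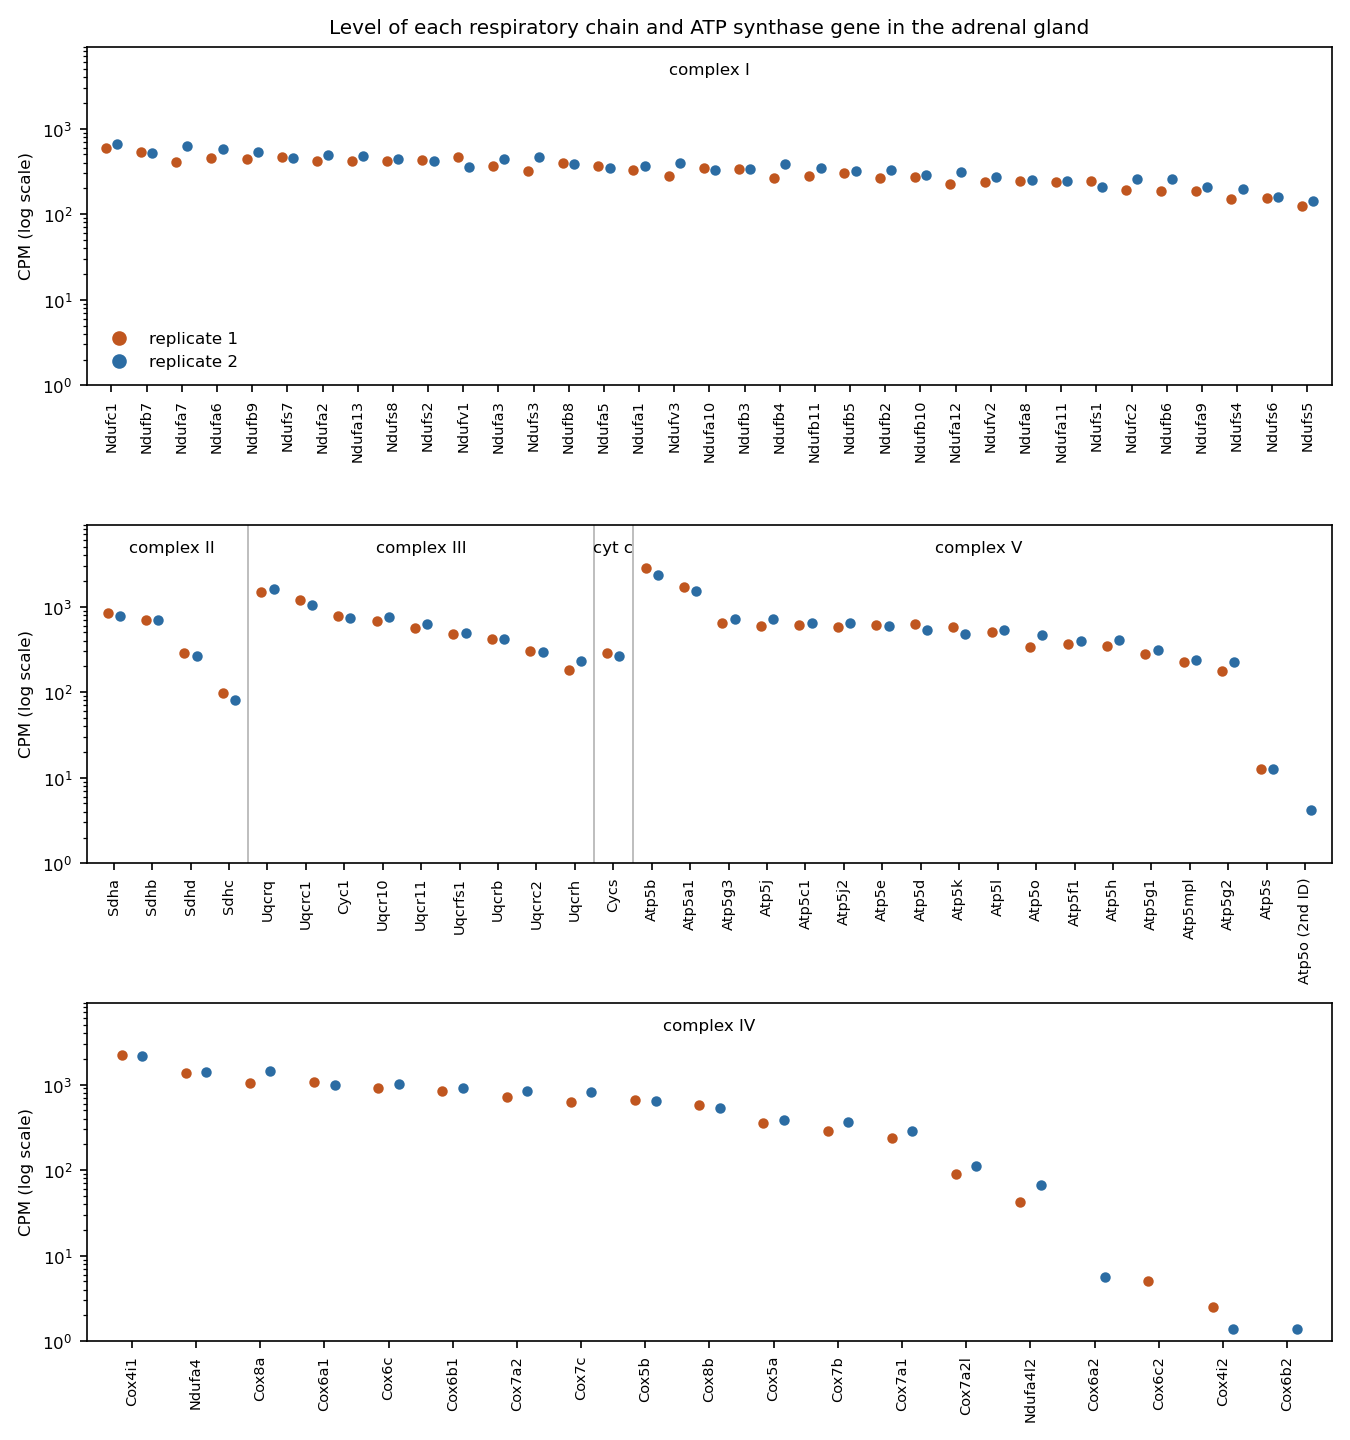
Level of each gene in CPM (log axis) in replicate 1 (orange) and replicate 2 (blue), ordered by mean level within each complex; a library with no read has no point. Complex I genes lie within a narrow band, whereas complexes IV and V run from 2188 CPM for Cox4i1 and 2567 CPM for Atp5b (means) down to a few reads.

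Complex I levels lay within a narrow range, with 4.72-fold between the highest and the lowest of its 35 genes. Ndufc1, a small membrane-arm subunit, was highest with 592 CPM in replicate 1 and 660 in replicate 2. Ndufb7, at the intermembrane-space side of the arm, followed with 539 and 524 CPM. Ndufa7, a supernumerary subunit of the matrix arm, had 410 and 621 CPM. Ndufa6, a supernumerary subunit of the LYR motif family, had 448 and 573 CPM. All but Ndufb7 had higher values in replicate 2. At the lower end stood Ndufs6, a zinc-binding subunit, with 156 and 157 CPM, and Ndufs5 with 123 and 142 CPM. The 7 core subunits, which carry the flavin and the iron-sulphur clusters or the ubiquinone site and are conserved from bacteria, spanned 2.03-fold, from Ndufs1 to Ndufs7. The core group summed to 2581 and 2623 CPM, and the 28 other subunits to 8795 and 10181 CPM. The core sum thus moved little between the libraries, whereas the sum of the other subunits was higher in replicate 2. Single core genes moved both ways, with 4 log2 ratios (replicate 1 over replicate 2) above 0 and 3 below. They ran from -0.54 for Ndufs3 to 0.35 for Ndufv1. The median transcript length was 1623 bases for core and 718 for other subunits, and its part was not tested. With annotated transcripts alone, scaled by their own total of reads, Ndufa13 fell from a mean of 450 CPM to 0 CPM. Ndufb3 fell to 181 CPM, against 337 CPM. Apart from Ndufa13 the range of complex I was then 4.64-fold, and it was 4.71-fold without models of 1 exon.

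In complex II, the catalytic subunits stood above the membrane anchors. Sdha, the flavoprotein that oxidises succinate, had 841 CPM in replicate 1 and 775 in replicate 2. Sdhb, the iron-sulphur subunit, had 700 and 706 CPM. Sdhd and Sdhc, which anchor the complex and bind its haem, had lower levels in both libraries. Sdhd had 289.5 and 264 CPM. Sdhc had 98.2 and 80.1 CPM from 39 and 57 reads. In each library the 2 catalytic genes were above both anchors, and the whole range was 9.07-fold although the complex holds 1 copy of each subunit.

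Complex III ran over 7.55-fold. Uqcrq, a small ubiquinone-binding subunit, was highest with 1480 and 1616 CPM. Uqcrc1, a core protein facing the matrix, had 1196 and 1048 CPM. Cyc1, the haem protein cytochrome c1, had 768 and 746 CPM. Uqcr10, a small transmembrane subunit, had 680 and 753 CPM. The libraries kept this order except that Uqcr10 passed Cyc1 in replicate 2. Uqcrq and Uqcrc1 change places with other models: the means were 1196 CPM for Uqcrq and 1349 CPM for Uqcrc1 with annotated transcripts alone, and 1045 and 1249 CPM without models of 1 exon. Uqcrc2, the partner of Uqcrc1 in the core dimer, stood far below it with 300 and 293.5 CPM. The acidic hinge protein Uqcrh was lowest with 181 and 229 CPM.

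Complex IV held the widest set of alternative isoforms. Cox4i1, the ubiquitous form of subunit 4, was highest with 2231 CPM in replicate 1 and 2145 in replicate 2. Ndufa4, once assigned to complex I and now counted with complex IV, had 1352 and 1414 CPM. Of its reads 56.1% and 69.3% were on annotated transcripts. With annotated transcripts alone Cox8a stood second, with a mean of 1589 CPM, and Ndufa4 lower. Cox8a had 1052 and 1430 CPM, and Cox6a1 had 1057 and 999 CPM. Cox8a had an SD of 267 CPM over the libraries (n = 2), and the other 3 had SDs of 41.7 to 60.9 CPM. Of the isoforms known from single tissues, Cox4i2, of lung, had 1 read in each library. Cox6b2, of testis, had 0 reads in replicate 1 and 1 in replicate 2. Cox6a2, of heart and skeletal muscle, had 0 and 4 reads. Cox6c2, annotated as a processed pseudogene, had 2 and 0 reads. These 4 had too few reads for a test.

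Other isoforms known from heart, skeletal muscle and brown fat were read at length. Cox8b held 35.2% of COX8 reads in replicate 1 (31.6 to 39.0), against 27.0% in replicate 2 (24.8 to 29.4), from 227 and 377 reads or 572 and 529 CPM. Cox8a held the remaining 64.8% and 73.0%, and Cox8c, a testis form, had 0 reads, which allows up to 0.465% and 0.215%. The Cox8b share was thus higher in replicate 1, beyond the counting intervals, while its own level was not called (log2 ratio, replicate 1 over replicate 2, of 0.11, adjusted p = 0.850, exact binomial test). Cox7a1 held 22.7% of COX7A reads in replicate 1 (18.9 to 27.0), against 23.0% in replicate 2 (20.4 to 25.9), from 94 and 205 reads. Cox7a2, the form of most tissues, held 68.6% and 68.0%. Cox7a2l, a related protein of supercomplexes of complexes III and IV, held 8.70% and 8.99%. The intervals of each COX7A gene overlap between the libraries. Cox6a1 took 100% and 99.4% of COX6A reads, and Cox6b1 100% and 99.8% of COX6B reads. Cox7b had 114 and 263 reads, and its testis form Cox7b2 had none, which allows up to 2.63% and 1.14%. Ndufa4l2, a hypoxia-induced relative of Ndufa4, had 3.07% and 4.55% of the reads of the pair.

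Markers of brown fat, skeletal muscle and heart, from which Cox8b and Cox7a1 are known, were counted beside them, as were markers of kidney and liver. The brown fat list held Ucp1, Cidea, Elovl3, Cpt1b, Plin1, Plin5, Adipoq and Pparg. All 8 were read, Elovl3 with only 5 and 6 reads, and they summed to 1647 CPM in replicate 1 and 1187 in replicate 2. Among them Ucp1, the uncoupling protein that defines brown fat, had 526 and 279 CPM. Of 12 skeletal muscle markers, 8 were at 0 in both libraries, among them Acta1, Ckm, Myh1, Myh2 and Myh4, and the list summed to 47.8 and 36.5 CPM, mainly Pygm. All 5 heart markers and all 4 kidney markers were at 0. All 8 brown fat markers had higher CPM in replicate 1, with log2 ratios from 0.11 for Adipoq to 0.91 for Ucp1 and a median of 0.48. Of these 8, Ucp1 alone was called between the libraries (log2 ratio 0.91, adjusted p = 7.43e-08, exact binomial test). Over all genes tested, 1.35% were called higher in replicate 1. The level of Cox8b was not called, and its higher share in replicate 1 stood beside a lower level of Cox8a there. Liver markers set the libraries apart: 6 of 6 were read in replicate 1 and 1 in replicate 2, with sums of 244 and 1.40 CPM, and all 4 of those tested were called higher in replicate 1. The part of fat around the gland in the levels of these isoforms was not tested.

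**Figure D2:**
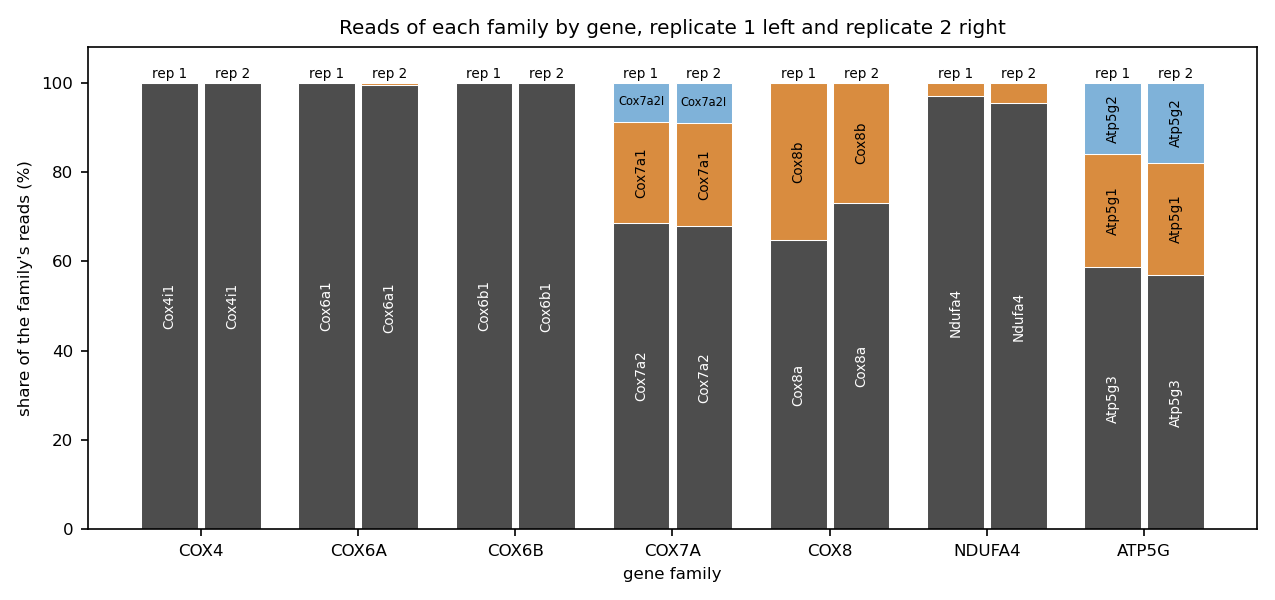
Share of each gene in the reads of its family (%), with replicate 1 left and replicate 2 right in each pair. COX4, COX6A and COX6B are nearly all 1 gene, whereas COX7A, COX8 and ATP5G reads are divided, with Cox8b at 35.2% and 27.0% of COX8; the thin slice above Ndufa4 is Ndufa4l2.

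In complex V the catalytic head stood highest. Atp5b, the beta subunit that carries the catalytic sites, had 2807 CPM in replicate 1 and 2327 in replicate 2. Atp5a1, the alpha subunit, had 1682 and 1532 CPM. Atp5g3, a c subunit gene, had 650 and 709 CPM, and Atp5j, the peripheral-stalk subunit F6, had 594 and 720.5 CPM. With annotated transcripts alone Atp5j averaged 153 CPM, against 657 CPM over all models, so it stands among the leading genes only where all models are counted. The F1 head and central stalk, 5 genes, summed to 6322 and 5619 CPM, the c ring to 1108 and 1247, the peripheral stalk to 1647 and 1989, and the membrane accessory subunits to 1871 and 1899. The sum of the head and stalk was thus higher in replicate 1. Of its 5 genes Atp5b alone was called between the libraries, and Atp5c1 went the other way with 609 and 639 CPM. The c ring and peripheral stalk sums were higher in replicate 2, but none of their genes was called. The intervals of the c ring overlap, at 0.101% to 0.122% of reads in replicate 1 and 0.117% to 0.133% in replicate 2. Atp5c1, Atp5d and Atp5e, of which the mature complex holds 1 copy each, lay close together with means of 624, 578 and 594 CPM. Atp5s, named as coupling factor B, had 5 and 9 reads, 12.6 CPM in each library. The lowest identifier was a second one of the symbol Atp5o, whose annotated span overlaps the end of the main gene, with 0 and 3 reads.

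The c ring turns as protons pass and is encoded by 3 genes, which share the mature protein but differ in their import sequence. Atp5g3 held 58.6% of their reads in replicate 1 (54.0 to 63.1), against 56.9% in replicate 2 (53.6 to 60.1). Atp5g1 held 25.5% and 25.2%, and Atp5g2 15.9% and 17.9%. The order was the same in both libraries, and the intervals of each gene overlap. The last 228 coding bases of each gene are shown as the part that codes for the shared mature protein. They are not all that can tell long reads apart, since the import sequences differ. They come from the GENCODE M21 transcripts (mm10), joined across exons 5′ to 3′, and capitals mark positions that are not identical in all 3 genes. Atp5g1-202 is read from chr11:96073104-96073635, Atp5g2-202 from chr15:102663014-102665166 and Atp5g3-201 from chr2:73908593-73909296, all on the minus strand.
Atp5g1: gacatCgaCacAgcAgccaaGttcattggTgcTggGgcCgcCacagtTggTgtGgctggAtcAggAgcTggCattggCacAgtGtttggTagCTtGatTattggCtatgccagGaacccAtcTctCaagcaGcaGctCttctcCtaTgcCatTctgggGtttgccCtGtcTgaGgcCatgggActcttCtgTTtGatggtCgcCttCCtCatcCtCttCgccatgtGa
Atp5g2: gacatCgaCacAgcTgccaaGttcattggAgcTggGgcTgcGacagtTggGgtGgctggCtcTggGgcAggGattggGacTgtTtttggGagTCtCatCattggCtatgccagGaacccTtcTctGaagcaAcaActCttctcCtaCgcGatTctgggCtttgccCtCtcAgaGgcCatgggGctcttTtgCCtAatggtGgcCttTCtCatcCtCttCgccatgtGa
Atp5g3: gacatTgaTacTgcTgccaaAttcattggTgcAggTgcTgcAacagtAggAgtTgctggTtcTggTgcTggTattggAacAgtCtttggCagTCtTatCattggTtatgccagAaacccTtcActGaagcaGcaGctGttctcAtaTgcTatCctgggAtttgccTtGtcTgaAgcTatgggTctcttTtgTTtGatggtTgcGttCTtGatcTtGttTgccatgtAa
Of these positions 58 differ among the genes, 52 of them at the last base of a codon. Atp5g1 and Atp5g2 are identical at 85.1% of positions, Atp5g1 and Atp5g3 at 79.8%, and Atp5g2 and Atp5g3 at 78.5%. Several members have processed pseudogenes with closely similar sequence, and how far the assignment of reads between copies affects the counts was not tested. Models of 1 exon assigned to Atp5g2 outside its splicing held 41.4% and 39.6% of its reads (29 and 63), so its level rests in part on them.

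Between the libraries, 5 of 81 members tested differed by a two-sided exact binomial test with Benjamini-Hochberg adjustment over all 9271 genes tested, where the background was 2.15% of genes. This test compares these 2 libraries and not conditions. Cox8a (chr19:7215153-7217616) had 418 and 1018 reads in replicates 1 and 2 and a log2 ratio of CPM, replicate 1 over replicate 2, of -0.44 (adjusted p = 1.83e-05, exact binomial test). Ndufa7 (chr17:33824572-33838317) had 163 and 442 reads, a log2 ratio of -0.59 (adjusted p = 0.000480, exact binomial test). Ndufs3 (chr2:90894634-90904827), a core subunit of the matrix arm, had 127 and 331 reads and a log2 ratio of -0.54 (adjusted p = 0.0200, exact binomial test). Cox7c (chr13:86044816-86046904), a small subunit of complex IV, had 248 and 578 reads and a log2 ratio of -0.38 (adjusted p = 0.0290, exact binomial test). These 4 were lower in replicate 1. Atp5b (chr10:128083273-128090391) was higher in replicate 1, with 1115 and 1657 reads and a log2 ratio of 0.27 (adjusted p = 0.000233, exact binomial test). Of all genes tested, 1.35% were called higher in replicate 1 and 0.798% higher in replicate 2. No member was called by edgeR's exact test with a common dispersion of 0.0197. The dispersion was estimated from these same 2 libraries taken as replicates. It thus holds the differences under test, and few calls are built into the comparison. The edgeR test called 12 of 9271 genes, and no member had an unadjusted p below 0.05 in it. In the binomial test 18 members had one, 22.2% of those tested, where the background was 11.5% of genes. Members had more reads than most genes tested, and liver marker reads were nearly all in replicate 1, at 244 CPM against 1.40 CPM; the part of either in these differences was not tested.

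The median log2 ratio of the members tested was -0.11, against -0.03 over all genes tested, with 26 members above 0 and 55 below. Most members have short transcripts: 66 of them fell in the shortest quartile, at most 1602 bases of annotated length, of the 8892 tested genes with such a length (379 had none). In that quartile the median was -0.145 for members and -0.145 for all 2225 genes, so the members' median lay at the background of genes of their length. The 10 members of the second quartile had a median of 0.06, against -0.02 for all genes there. Atp5b, at 1916 bases, is among those, and Ndufa7, Cox7c, Cox8a and Ndufs3 are all of the shortest quartile. Length moved with the ratio in this way, and its part in the differences between libraries was not tested.

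**Figure D3:**
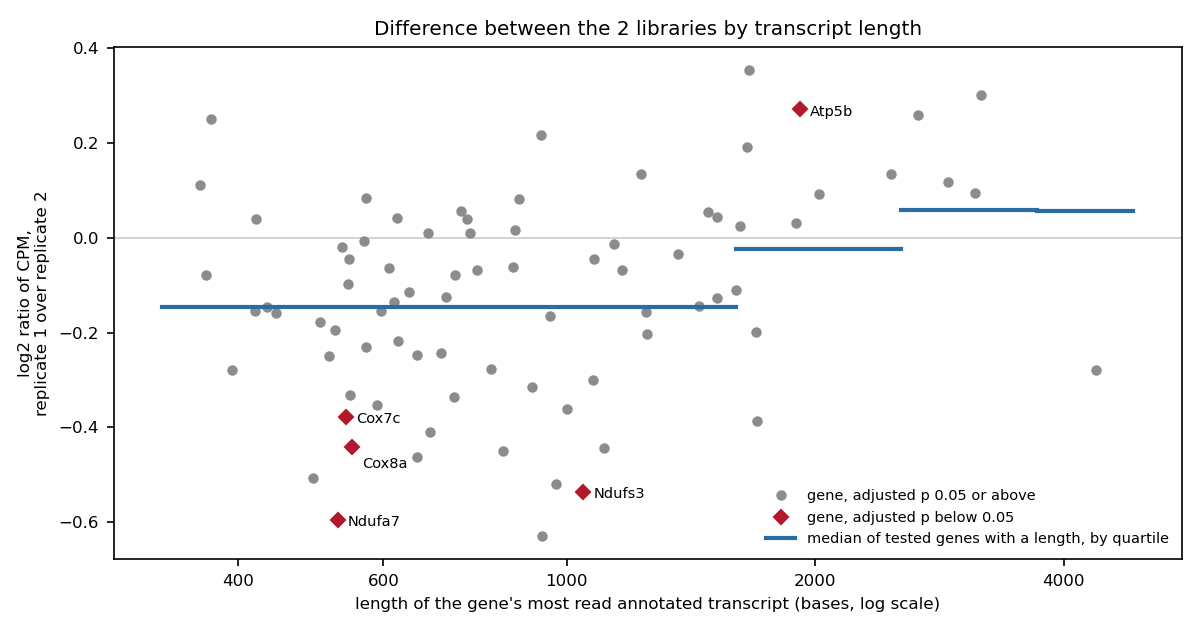
Log2 ratio of CPM (replicate 1 over replicate 2) of the 81 members tested against the annotated length of their most read transcript in bases (log axis), with the median of all tested genes of known length in each length quartile as bars. The members scatter about the bars, at -0.145 for the shortest quartile, and the 5 called genes are named.

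Most member reads followed annotated transcripts. Full annotated chains held 86.2% of member reads in replicate 1 and 87.6% in replicate 2, against 76.7% and 76.5% for the reads of all other annotated genes. Unannotated combinations of annotated splice sites held 0.732% and 0.717% of member reads, against 4.80% and 4.81% elsewhere. Chains with at least 1 unannotated splice site held 1.13% and 1.12%, against 3.49% and 3.45% elsewhere. Genomic models, which lie in a gene without its splicing, held 0.720% and 0.822%, against 6.02% and 5.96% elsewhere. Incomplete splice matches follow part of an annotated chain of introns without a break, or hold 1 exon and no intron. They were the exception, with 11.2% and 9.71% of member reads against 9.01% and 9.26% elsewhere. That excess rests on 1 gene in replicate 2: without Uqcrq the members' share was 10.2% and 8.52%, above other genes in replicate 1 and below them in replicate 2. No leading gene was taken out of the other genes for this. The members' median annotated length was 780 bases, and the part of length in these shares was not tested. Of the 81 members tested, 54 had over 90% of their reads on annotated transcripts in both libraries and 11 had under 70% in both. The same counts were not made over other genes, so they only describe the members.

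**Figure D4:**
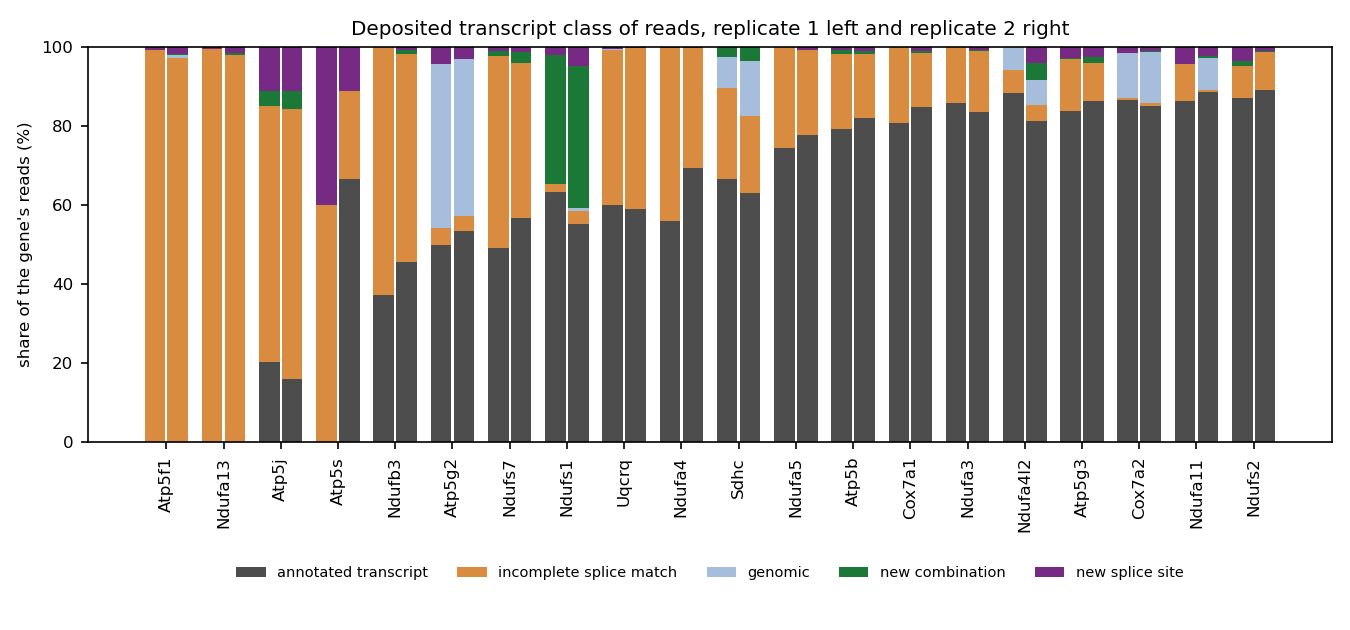
Share of reads in each deposited transcript class (%) for the 20 members tested with the lowest annotated share, with replicate 1 left and replicate 2 right. Incomplete splice matches make up nearly all reads of Atp5f1 and Ndufa13, genomic models a large part of Atp5g2, and new combinations of splice sites a large part of Ndufs1.

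The incomplete splice matches were concentrated in a few genes. For Atp5f1, a peripheral-stalk subunit, 1 model with 6 introns held 145 of 147 reads in replicate 1 and 269 of 285 in replicate 2, or 98.6% and 94.4%. It lacks the first intron of the annotated Atp5f1-201, which had no reads in either library, yet its exons hold every coding base. For Ndufa13, a membrane-arm subunit also known as GRIM-19, a model with 3 introns held 160 and 330 reads, 96.4% and 96.2%. Atp5j had a like model with 146 and 328 reads, 61.9% and 63.9%. In these 3 genes the model spans the whole coding sequence. Models that span a coding sequence held 28.2% and 34.5% of the members' incomplete-match reads, against 20.3% and 20.3% for other genes. Most of these member reads, 521 and 1046 in all, were on the models of these 3 genes. The higher share thus rests on them and is no trait of the members in general. Other models held only a 3′ part. Ndufa4 had a model with only its last intron, with 227 and 296 reads, 42.3% and 29.4%. Atp5b had one of its last intron with 172 and 193 reads, 15.4% and 11.6%. Ndufs7, a core subunit of complex I, had one with 80 and 118 reads, 43.2% and 36.5%. These 3 shares were higher in replicate 1. Single-exon models held 231 and 469 reads of Uqcrq, 39.3% and 40.7%, and 82 and 126 reads of Ndufb3, 61.2% and 52.7%.

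Retained-intron transcripts took 3.96% of the members' annotated-transcript reads in replicate 1 (3.65 to 4.30), against 3.01% in replicate 2 (2.82 to 3.22), with a mean of 3.49% ± 0.672 (SD, n = 2), against 1.02% and 1.10% for other genes. Cox4i1 held 454 of the 565 reads in replicate 1 and 627 of the 825 in replicate 2. Without Cox4i1 the share was 0.829% and 0.765%. The 1.02% and 1.10% of other genes include their own leading genes, so the 2 shares are not like for like. Next were Ndufa7 with 29 and 80 reads, Cyc1 with 22 and 38, Cox6a1 with 10 and 16, and Ndufv1, the NADH-binding subunit, with 7 and 8. Atp5j had 6 and 7, Atp5l, a membrane accessory subunit, 4 and 5, and Ndufa6 6 and 3. In 98.8% and 98.7% of the members' retained-intron reads, against 55.4% and 54.3% elsewhere, the transcript's introns are all a contiguous part of a coding transcript's chain. Splicing alone then does not separate such a read from a shortened read of the coding transcript. The files give no ends of single reads.

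Cox4i1 (chr8:120668222-120674207) differed in transcript use between the libraries. The coding transcript Cox4i1-201 had 398 of 863 annotated reads in replicate 1 and 852 of 1495 in replicate 2, or 46.1% and 57.0% (adjusted p = 0.000392, two-sided Fisher's exact test over 1866 genes). The retained-intron transcript Cox4i1-204, which starts before the third exon and has the last 2 introns of the coding chain, had 449 and 620 reads, 52.0% and 41.5%. It was the most read transcript of the gene in replicate 1 but not in replicate 2. Atp5d, the delta subunit of the stalk, was the other member called. Atp5d-201 had 196 of 225 and 343 of 351 reads, 87.1% and 97.7% (adjusted p = 0.000440, two-sided Fisher's exact test), and Atp5d-203, which has an extra 5′ exon and the same coding sequence, had 28 and 6. Of 58 members tested for transcript use 2 were called. Over all 1866 genes 3 were, or 0.161%, and these 2 are among them. The part of the members' higher read counts in this was not tested. Over protein-coding transcripts alone, Atp5d was called and Cox4i1, with its retained-intron transcript out, was not.

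**Figure D5:**
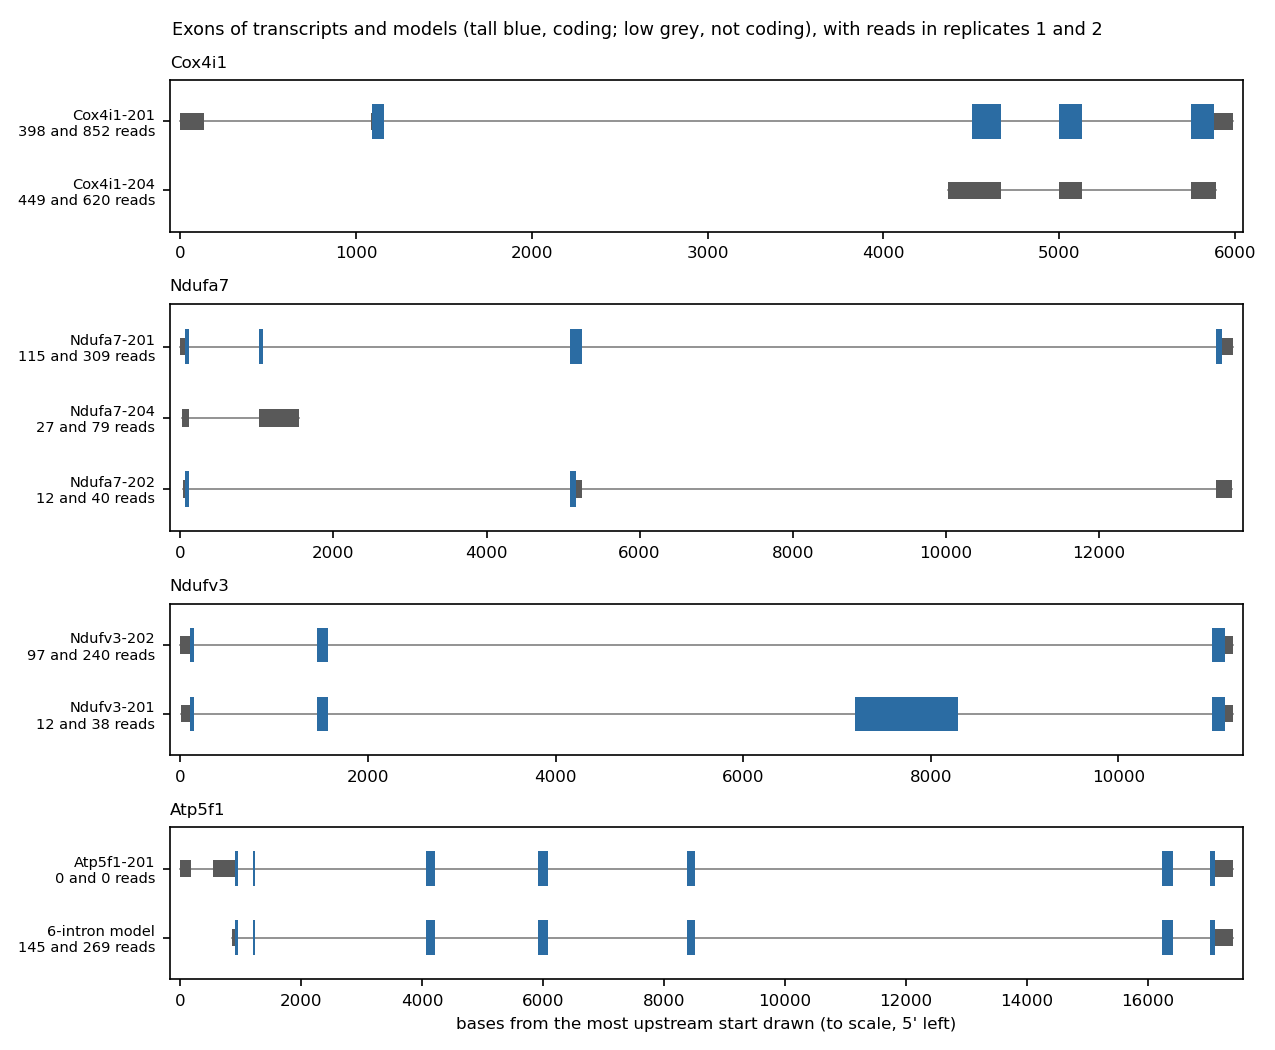
Exons of transcripts and models of 4 genes, to scale in bases from the most upstream start drawn, with the reads of replicate 1 and replicate 2 beside each name. Cox4i1-204 covers the last 3 exons of the coding transcript, Ndufv3-201 adds 1 large coding exon, and the 6-intron model of Atp5f1 leaves out the first, non-coding exon.

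Among members with more than 1 annotated transcript in use, the coding sequence was the same in 5 of the 8 leading ones. By the share of the second transcript in the library where it was smaller, the 8 highest were Cox4i1, Atp5g1, Ndufb2, Ndufs1, Atp5g3, Ndufa7, Ndufs8 and Ndufv3. Atp5g1-201 took 35.5% and 39.2%, Ndufb2-202 34.0% and 40.6%, and Ndufs1-203 25.8% and 35.8%. Atp5g3-202 took 25.5% and 24.5%, and Ndufs8-201 18.0% and 14.8%. In these 5 genes both transcripts have the same coding sequence, between 315 bases in Ndufb2 and 2181 in Ndufs1. Ndufa7-204, a retained-intron transcript, took 17.3% and 18.4%. It ends within the second intron and shares only the first intron with the coding transcript.

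Ndufv3, a subunit of the NADH-binding module, was the 1 gene of these 8 whose second transcript is protein-coding with another coding sequence. The short form Ndufv3-202, of 312 coding bases, had 97 and 240 reads, and the long form Ndufv3-201, of 1404 coding bases, had 12 and 38. Of the next 4 members by that share, 2 also had a second transcript with another annotated coding sequence. Ndufa11-204, with 228 coding bases against 429, had 6 and 9 reads, and Ndufs4-202, a target of nonsense-mediated decay with 111 against 525, had 4 and 9. The long form of Ndufv3 thus held 11.0% in replicate 1 (6.41 to 18.3) and 13.7% in replicate 2 (10.1 to 18.2), and the intervals overlap. Its extra exon of 1092 bases is a whole number of codons, 364. The junctions that tell the forms apart are shown, from GENCODE M21 (mm10, plus strand, within chr17:31521669-31531133), with bases of the extra exon in capitals.
Ndufv3-202, exon 2 to last exon: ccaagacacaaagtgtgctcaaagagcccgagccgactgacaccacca
Ndufv3-201, exon 2 to exon 3: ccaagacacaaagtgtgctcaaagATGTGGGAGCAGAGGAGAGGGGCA
Ndufv3-201, exon 3 to last exon: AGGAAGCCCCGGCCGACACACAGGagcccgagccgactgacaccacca

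In other members a small exon alters the coding end or the frame. Atp5c1, the gamma subunit that turns within the head, was chosen for this after its values were seen. Atp5c1-203, which includes a 37-base exon, had 214 and 381 reads, 95.5% and 91.1%. Atp5c1-201, which lacks it, had 10 and 37 reads, 4.46% and 8.85%. The difference in use was not called (adjusted p = 1, two-sided Fisher's exact test). Ndufa7-202, annotated as a target of nonsense-mediated decay, lacks a 50-base exon and had 12 and 40 reads, 7.69% and 9.32%. The coding ends of Atp5c1 (mm10, minus strand, capitals for bases after the shared coding exon) and the exon that Ndufa7-202 lacks (mm10, plus strand, in capitals) are printed from GENCODE M21.
Atp5c1-203 coding end: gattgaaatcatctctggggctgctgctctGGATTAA
Atp5c1-201 coding end: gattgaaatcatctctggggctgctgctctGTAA
Ndufa7-201, exons 1 to 3: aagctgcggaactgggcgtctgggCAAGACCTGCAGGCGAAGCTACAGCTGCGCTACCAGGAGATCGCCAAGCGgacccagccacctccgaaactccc

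Unannotated intron chains held a small share of member reads. Over both libraries 442 chains were listed in the classes of new combinations and new splice sites. Of these, 72 were found in both, or 16.3%, against 13.4% of the 44168 chains of all annotated genes. For new combinations the shares were 18.1% against 17.7%, and for new splice sites 15.4% against 9.24%. The part of the members' higher read counts in these shares was not tested. The 72 chains belonged to 41 genes, 24 had at least 2 reads in each library, and 7 at least 5. The most read was a chain of Ndufs1, the largest iron-sulphur subunit of complex I, with 18 and 38 reads, and a further Ndufs1 chain had 10 and 12. Both include a 104-base exon (chr1:63172154-63172257) before the first coding exon, so the coding chain is unaltered. Sdhb had a chain with 13 and 28 reads, 4.68% and 5.57% of the gene, whose first intron ends 6 bases inside exon 2 (chr4:140961477-140966500 in place of chr4:140961477-140966494). The junction lies in the coding sequence and the shift is a multiple of a codon. The annotated join of Sdhb-201 is shown from GENCODE M21 (mm10, plus strand), with capitals for the bases absent from that chain.
Sdhb-201, exon 1 to exon 2: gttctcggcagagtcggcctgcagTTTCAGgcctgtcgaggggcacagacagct
Atp5j had chains with 13 and 26 reads and with 8 and 17 reads, which alter its non-coding 5′ part. Atp5b had a chain with 8 and 10 reads that keeps a 411-base intron between coding exons (chr10:128085627-128086037). Ndufb11, a membrane-arm subunit, had a chain with 5 and 5 reads and 1 added intron in its non-coding 5′ part (chrX:20617282-20617369). The remaining 3 of the 10 most read were of Ndufs3 with 4 and 3 reads, Atp5g3 with 3 and 7, and Cyc1 with 3 and 5, whose first intron ends 4 bases inside the next coding exon.

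Genes of this pathway are textbook targets of the transcription factors NRF1 and GABPA, and their promoters were searched for the letters of each motif on both strands. RefSeq promoter windows (GRCm38.p6, 250 bases before to 50 after each start) were matched for 68 members. The NRF1 letters, GCGCA and GCGC with any 1 base between them, were found in 17 of these, 25.0%, against 5.19% of all 27025 genes with windows and 13.1% of the 7159 with at least 10 reads. The GABPA letters CCGGAAGT were found in 5, 7.35%, against 4.31% and 10.6%. The NRF1 matches lay in 7 genes of complex I, 2 of complex II, 1 of complex III, 1 of complex IV and 6 of complex V. A match is a description of the letters and not of binding. The 4 members with at least 2 matched NRF1 sites are shown, each as the site farthest upstream in capitals with 10 bases to either side, from chr5:115349101-115349130, chr16:37654540-37654569 and chr13:74350319-74350348 on the minus strand and chr9:108936643-108936672 on the plus strand.
Cox6a1: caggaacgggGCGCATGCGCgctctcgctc
Ndufb4: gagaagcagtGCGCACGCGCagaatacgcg
Sdha: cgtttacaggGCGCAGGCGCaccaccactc
Uqcrc1: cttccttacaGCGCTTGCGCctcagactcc
The Uqcrc1 site matches on the opposite strand. Sdha and Ndufb4 have 3 sites each, and Cox6a1 and Uqcrc1 have 2 each.

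Genes for the proteins that build the complexes were read at lower levels than the subunits. Of 49 assembly factors, 47 were read in replicate 1 and 48 in replicate 2, with summed levels of 3575 and 3980 CPM and a median of 46.5 CPM. Highest were Cox14, an early factor of complex IV, with 509 and 597 CPM, and Cox17, a copper chaperone for complex IV, with 320 and 340 CPM. Sdhaf1, an iron-sulphur assembly factor of complex II, had 8 and 46 reads and was lower in replicate 1 (log2 ratio -1.61, adjusted p = 0.0444, exact binomial test). It was the 1 called of 47 tested, a share near the background of 2.15% of all genes, so the count is no result about the assembly factors. Pet117 had no read in either library. The 7 regulators summed to 232 and 246 CPM, and none of the 5 tested was called. Among them Esrra, an orphan nuclear receptor that acts on these genes, had 118 and 114 CPM, and Nrf1 had 15.1 and 33.7 CPM from 6 and 24 reads. Ppargc1a, the coactivator PGC-1alpha, had 2 and 0 reads.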

How the data were processed

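Long-read libraries were deposited by the authors as counts: per the file headers, each table lists whole reads per transcript model of 1 library, for models with at least 1 read. Reads were assigned to mm10 and GENCODE M21 by TALON, which named further models in each library separately. The aligner and the program versions are not given in the sources used here. A gene's count summed all its models. Added ERCC control reads were left out, and Lexogen controls, genome sequence and parental alleles were not analysed here. The members and lists were chosen with earlier results of these data known.

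The main test, for genes with at least 10 reads in all, was the two-sided exact binomial test of a gene's reads against library totals, with Benjamini-Hochberg adjustment at 0.05 and 0.5 added to each count for log2 ratios. Transcript use was compared by Fisher's exact test in genes with at least 20 annotated reads in each library. Both tests were tested on simulated data. A gene's length is that of the annotated transcript with the most reads, or of its longest coding one where none was read. Named members were the 4 highest and 2 lowest of each complex, all paralogues, called members, and the leading transcripts and chains. Sequences came from GENCODE M21 and RefSeq. Alternatives used TMM (edgeR 4.0.16), size factors (DESeq2 1.42.0), other filters, other models, each library alone and edgeR's exact test; Python 3.11.15, scipy 1.17.1, pandas 2.3.3 and R 4.3.3 were used.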

Additional observations from a re-analysis of the deposited data

How the results depend on the processing

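No paired analysis was possible because the labels give 1 group. Levels depended on the models counted. Each choice of models was scaled by its own total of reads, so a sum in CPM can rise although reads are left out. With annotated transcripts alone the members summed to 48261 CPM in the mean of both libraries, and complexes I to V to 13599, 2181, 6830, 13769 and 11533 CPM, with Cycs at 349. Without models of 1 exon the members summed to 46330 CPM, complexes I, II, IV and V to 13169, 2059, 12676 and 11992 CPM, and Cycs to 303. Over all mouse reads the members summed to 40489 CPM, complexes II, III and V to 1778, 5819 and 10287, and Cycs to 261. With annotated transcripts alone 5 members tested moved by over 1.5 times: Atp5f1 and Ndufa13 fell to 0 CPM, against 385 and 450 CPM, Atp5j to 153 CPM, against 657, Ndufb3 to 181, against 337, and Atp5s to 5.47, against 12.6. Without models of 1 exon Ndufb3 alone did, at 163 CPM. Either library alone gave 41634 and 43893 CPM for all members and 3.01% to 3.96% for retained introns.

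The count of 5 members called between the libraries was 4 to 7 under 6 alternatives of models, scaling and filter, and 0 in edgeR's exact test. The dispersion of that test came from the same 2 libraries, so its 0 cannot decide whether the 5 differ. The 5 genes stayed called under all 6 alternatives of models, scaling and filter, except Cox7c without a filter. Transcript use gave 1 call over protein-coding transcripts alone. The 72 shared chains were 24 with at least 2 reads in each library and 7 with at least 5. Without Uqcrq the mean incomplete-match share was 9.34%, against 9.13% for other genes, without Ndufs1 that of new combinations 0.546%, without Atp5j that of new splice sites 0.970%, and without Cox7a2 the genomic share 0.555%. With 2 libraries of 1 group, nothing here speaks of conditions, and the depth of replicate 1 limits what can be said of members under 10 reads.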

Other observations

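The deposited 5′ ends of 3 models that lack the first annotated intron were set beside other starts. For Atp5f1 the 6-intron model ended 1 base upstream of the RefSeq start in replicate 1 and 17 bases downstream of it in replicate 2, whereas the annotated start of Atp5f1-201 lies 836 bases upstream. For Ndufa13 the model of replicate 1 ended 288 bases downstream of the RefSeq start, and the annotated start lies 538 bases upstream of it. In all 3 genes, Atp5j included, the model's 5′ end coincides in both libraries with the end of an annotated exon of the same gene, so these ends are not a direct measure of where reads began.

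Of the 91 annotated genes that the symbols select, 5 had no model in either library: Cox7b2, Cox8c and the processed pseudogenes Ndufa11b, Ndufb4c and Ndufs6b. Members lay on 19 chromosomes, with the most, 8, on chromosome 7.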
